A study of Mus musculus with 6 samples.

Results

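The genes described here are 36 named genes of nucleolar ribosome biogenesis, followed in group 1 innate lymphoid cells (ILC1) from mouse liver. They were picked by symbol from a fixed list and not by a cutoff on any value, but the list was chosen with earlier results of these data known. All 36 were found among the 24091 genes of the deposited count table, and all 36 were among the 12469 genes that passed the filter on low counts. ILC1 are tissue-resident lymphocytes known for making interferon gamma. Both groups were C57BL/6 mice. The AML mice had been injected intravenously with C1498 cells, a transplantable leukaemia line of the same strain, and the healthy mice had been left without them. ILC1 were taken from the liver at day 14, and 3 libraries per group were sequenced, called here healthy 1 to 3 and AML 1 to 3. The labels do not state how ILC1 were sorted, whether animals were pooled, or whether libraries came from separate animals. The p-values below therefore weigh a difference only against the scatter among these 6 libraries, some of which could be technical. Transplanted C1498 leukaemia is 1 cell line, and nothing here speaks for other leukaemias.

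The nucleolus is the part of the nucleus where ribosomes are made. RNA polymerase I copies the ribosomal RNA genes, small nucleolar ribonucleoproteins (snoRNPs) guide chemical marks onto the transcript, and large assemblies of helicases, scaffolds and GTPases cut, fold and export the small (40S) and large (60S) subunits. In lymphocytes this work is known to increase when cells are activated and grow, and the transcription factor Myc is known to drive many of its genes, binding with its partner Max to the E-box CACGTG.

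Total counts ran from 45135093 to 51284691 per library, and the lowest count of any of the 36 genes in any library was 395. Levels are CPM, counts scaled to the size of the library. The ILC1 label fitted the RNA: the 9 matched ILC1 markers, among them Itga1 and Tbx21, summed to 10409 to 10759 CPM in healthy mice and 10027 to 10899 CPM in AML mice. Hepatocyte markers summed to at most 5.92 CPM and B cell markers to at most 7.54 CPM. T cell markers summed to 46.2 to 58.6 CPM in healthy mice and 28.7 to 86.1 CPM in AML mice, lowest in AML 1. For erythroid markers the sums were 19.8 to 141 and 119 to 179 CPM. For blood progenitor markers they were 7.30 to 26.7 and 19.3 to 31.0 CPM. Markers of other blood cells followed the groups in part. The 11 macrophage markers summed to 24.7 to 84.5 CPM in healthy mice and 120 to 192 CPM in AML mice, the 10 dendritic cell markers to 96.8 to 183 and 330 to 587 CPM, and the 7 monocyte markers to 258 to 735 and 817 to 948 CPM. Most of the dendritic cell sum was Cd74, at 51.9 to 105 CPM in healthy mice and 194 to 359 CPM in AML mice. Most of the monocyte sum was Ccr2, at 189 to 212 and 274 to 294 CPM, together with Lyz2. The myeloid gene Lyz2 stood at 459 CPM in healthy 1, near the AML libraries, and at 35.0 and 33.1 CPM in healthy 2 and 3. The 8 NK cell markers summed to 345 to 382 CPM in healthy mice and 313 to 427 CPM in AML mice, and the 6 endothelial markers, mostly Pecam1, to 91.1 to 126 and 96.4 to 116 CPM. The NK cell markers Eomes and S1pr5 were low, at 4.96 to 17.1 and 5.15 to 14.1 CPM over the libraries. Most of the NK cell sum thus came from other markers of that list. Low values of Eomes and S1pr5 do not show that NK cell RNA was absent. The endothelial sum rested on Pecam1, as Stab2 was at 0.187 to 0.498 CPM, and does not by itself show endothelial RNA. Klra4 of NK cells and Lyve1 of endothelium had 0 reads throughout, as did Ly6g of neutrophils and Pax5 of B cells. The part of these other cells in the values below was not tested. In bulk RNA, fewer cells of a type and less RNA per cell cannot be told apart.

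As the E-box is a known route by which Myc reaches genes, it was searched in RefSeq promoters of GRCm38.p6. Both strands were searched (it reads the same on each), from 250 bases before to 50 bases after the start of transcription. Promoters were held for 31 of the 36 genes, and 6 of them, or 19.4%, contained CACGTG. It was present for 11.7% of 9687 tested genes with a promoter and for 8.09% of all 27025 genes in the table. The 6 matches are printed 5′ to 3′ on the strand of the gene, with up to 12 bases on each side and the E-box in capitals, as these are the members with a perfect E-box at the start site.
Nop2: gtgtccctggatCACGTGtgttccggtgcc
Pes1: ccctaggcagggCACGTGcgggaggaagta
Wdr43: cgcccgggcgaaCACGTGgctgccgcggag
Tsr1: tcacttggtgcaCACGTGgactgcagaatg
Utp20: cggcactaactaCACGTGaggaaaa
Mybbp1a: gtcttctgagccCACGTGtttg
They lie at chr6:125131811-125131840 (plus strand), chr11:3963965-3963994 (plus), chr17:71616220-71616249 (plus), chr11:74898092-74898121 (plus), chr10:88826765-88826789 (minus) and chr11:72441355-72441376 (plus). The first base of the E-box is 60 bases before the start site in Nop2. In the others it is at base 3 of the transcript (Pes1), 18 (Wdr43), 25 (Tsr1), 38 (Utp20) and 41 (Mybbp1a). The 6 genes with the motif had a median log2 fold change, AML minus healthy, of -0.04, and the 25 without it of -0.09. A match describes letters in a window and is not evidence of binding, and first introns were not searched.

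Most of the 36 genes were slightly lower in AML libraries, and no member passed the test. With edgeR's quasi-likelihood test, the number of members called at an adjusted p of 0.05 was 0, as it was for all genes (0% of 12469), of which 1102 had an unadjusted p under 0.05. The smallest adjusted p of a member was 0.399. The log2 fold change was negative for 27 of the 36, against 48% of all genes tested, and positive for 9. The median over the members was -0.10, beside 0.01 over all genes tested. At an unadjusted p under 0.05, 2 members were lower, Rrp12 and Rrp9, where 3.75% of all genes were, and 1 was higher, Utp20, where 5.08% were. In 5 members all 3 AML values were under the lowest healthy value (Rrp12, Rrp9, Mybbp1a, Pes1 and Rrp1b), a pattern shown by 7.34% of all genes. For 1 member, Utp20, all 3 were above the highest healthy value, against 8.2% of all genes. The share of members on the lower side was thus above that of all genes, while the numbers past an unadjusted p were near it. Genes of a pathway vary together and are not independent counts.

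The fold changes were small and fairly well bounded. The 95% interval of the fit stayed within a 2-fold change for all 36 members and within a 1.5-fold change (0.58 on the log2 scale) for 33. The exceptions were Rrp12, Fbl and Utp20. The median standard error of a member was 0.11, against 0.15 over all genes tested.

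**Figure D1:**
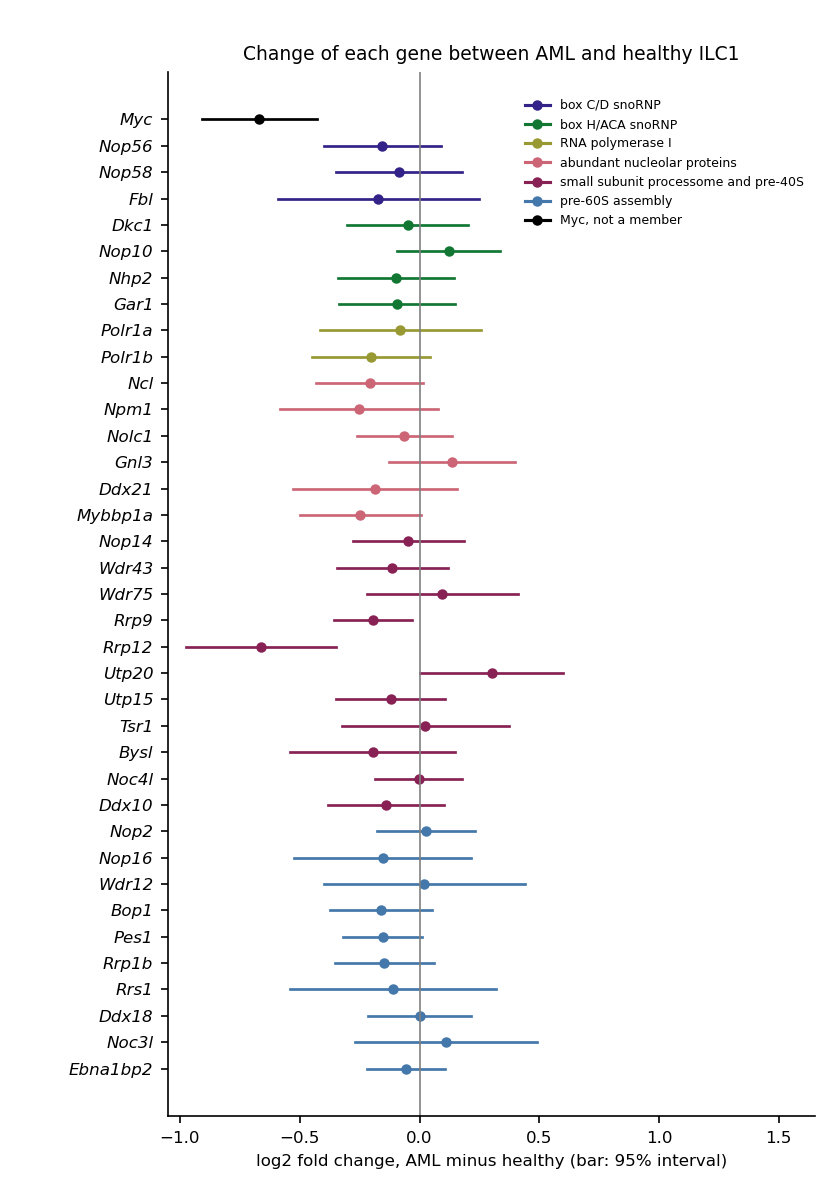
Log2 fold change of each of the 36 genes and of Myc, AML minus healthy, on the horizontal axis, with its 95% interval from the edgeR quasi-likelihood fit as a bar and the role of the gene as the colour. Most points lie just left of 0, and Rrp12 at -0.66 stands near Myc at -0.67, away from the other members.

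Rrp12 had the largest difference of the 36. It encodes a HEAT-repeat protein that helps pre-ribosomal particles mature and leave the nucleus, and lies on chromosome 19, 41862851 to 41896153 (mm10). Rrp12 measured 29.6, 27.6 and 25.9 CPM in healthy 1 to 3 and 19.7, 14.7 and 18.2 CPM in AML 1 to 3. All 3 AML libraries lay well below the lowest healthy library, with a gap larger than the range within either group. The means were 27.7 ± 1.89 and 17.5 ± 2.55 CPM (SD, n = 3 each), so the level in healthy libraries was 1.58 times that in AML libraries. The log2 fold change was -0.66 ± 0.13 (SE) with a 95% interval from -0.97 to -0.35, an unadjusted p of 0.00129. After Benjamini-Hochberg adjustment the quasi-likelihood p was 0.399, which does not pass.

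The call of Rrp12 depended on the tool. It was the only member called by DESeq2 (adjusted p of 0.0105, with 1.15% of all genes called) and by edgeR's likelihood ratio test (0.0193, with 0.802% called). Without AML 1 and healthy 1 it was the only member called by the quasi-likelihood test (0.0495, with 3.54% called). Over all settings its adjusted p ranged from 0.0105 to 0.816 and its log2 fold change from -0.75 to -0.55. Limma-voom called 0 members, and also 0 of all genes tested. In the authors' deposited table Rrp12 had a log2 fold change of -0.66 and an adjusted p of 0.0850, and 0 members passed 0.05 there, where 0.757% of its 9769 genes did. No 51-base window of the longest coding Rrp12 transcript occurred in a transcript of another gene, and no exon of another gene overlapped it in GENCODE vM21, so its reads could be assigned to it alone.

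Rrp12 works on the small subunit, and the other genes of that branch were mixed. Rrp9 belongs to the U3 snoRNP, which starts the cutting of the precursor, and measured 65.2, 67.7 and 68.1 CPM in healthy mice and 58.6, 57.9 and 59.1 CPM in AML mice. The groups did not overlap and each was tight, with means of 67.0 ± 1.59 and 58.5 ± 0.636 CPM (SD, n = 3 each). The log2 fold change was -0.19 ± 0.07 (SE), with an adjusted p of 0.504 in the edgeR fit. Utp20, a very large scaffold of the small subunit processome (chromosome 10, 88746607 to 88826814), went the other way. It measured 13.0, 12.1 and 13.0 CPM in healthy mice and 14.6, 16.0 and 16.3 CPM in AML mice, with a log2 fold change of 0.30 ± 0.13 (adjusted p 0.564, edgeR). At 1.45 RPKM (CPM divided by the deposited gene length in kilobases) in healthy libraries it was the least abundant member per length.

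The remaining members of this branch overlapped between the groups. Wdr43, Wdr75 and Utp15, which sit in the complex that loads first onto the nascent precursor, had log2 fold changes of -0.11, 0.09 and -0.12. Wdr75 was at 53.1 CPM in AML 3 and at 38.5 to 42.5 CPM in the other 5 libraries. Nop14 and its partner Noc4l had log2 fold changes of -0.05 and -0.0039, and the helicase gene Ddx10 of -0.14. Tsr1 and Bysl act late, on the pre-40S particle, and had values of 0.02 and -0.20. Bysl was at 58.5, 50.3 and 51.3 CPM in healthy mice and at 57.6, 41.3 and 40.8 CPM in AML mice, so that AML 1 lay with the healthy libraries. Of the 11 members of the branch 8 were lower, with a median log2 fold change of -0.11.

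Differences in the large subunit branch were small. Pes1, Bop1 and Wdr12 encode the 3 proteins of the PeBoW complex, which is needed to process the precursor of the large subunit. Pes1 measured 72.4, 71.2 and 68.0 CPM in healthy mice and 63.8, 64.5 and 61.9 CPM in AML mice. Its groups did not overlap, with a log2 fold change of -0.15 ± 0.07 (SE). Bop1, at 126 ± 10.3 and 113 ± 8.68 CPM, had a log2 fold change of -0.16, but its groups overlapped, and Wdr12, at 14.2 ± 2.15 and 14.4 ± 2.34 CPM (SD, n = 3 each), of 0.02. Rrp1b was at 41.4, 36.8 and 42.4 CPM in healthy mice and at 36.6, 36.5 and 35.8 CPM in AML mice. The AML libraries lay just under healthy 2 and close together, and the log2 fold change was -0.15.

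Among the other large subunit genes, Nop2, a methyltransferase of the large ribosomal RNA, had a log2 fold change of 0.03, the helicase gene Ddx18 of 0.00, Noc3l of 0.11 and Ebna1bp2 of -0.06. Rrs1, which brings in the 5S ribonucleoprotein, was at 51.8, 46.1 and 34.9 CPM in healthy mice and at 50.8, 36.6 and 35.7 CPM in AML mice. Its spread within each group was larger than the difference of the means, and its log2 fold change was -0.11. Nop16 had a value of -0.15. In this branch 6 of 10 members were lower, with a median of -0.08.

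Both subunits of RNA polymerase I were slightly lower. Polr1a, the largest subunit, was at 35.5, 34.6 and 32.1 CPM in healthy mice and at 39.5, 29.8 and 27.4 CPM in AML mice, which holds both the highest and the lowest value in the AML group. Polr1b measured 31.5, 36.4 and 35.7 CPM in healthy mice and 30.0, 27.5 and 32.6 CPM in AML mice, with a log2 fold change of -0.20 ± 0.11 (SE), and AML 3 lay above healthy 1.

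The snoRNP genes showed differences within the spread between libraries. Nop56 and Nop58, which form the scaffold of box C/D particles, measured 173 ± 12.2 and 156 ± 19.3 CPM and 106 ± 8.91 and 99.6 ± 13.5 CPM in healthy and AML libraries (SD, n = 3 each). Nop56 was at 180, 180 and 159 CPM in healthy mice and at 175, 137 and 155 CPM in AML mice, with AML 1 inside the healthy range. Fbl, the ribose methyltransferase fibrillarin, had a log2 fold change of -0.17 with a wide interval, from -0.59 to 0.25. For the box H/ACA particles, which make pseudouridine, the values were -0.05 for the enzyme gene Dkc1, -0.10 for Nhp2, -0.09 for Gar1 and 0.12 for Nop10. By the deposited gene lengths Nop10 was the most abundant of the 36, at 113 RPKM in healthy and 123 RPKM in AML libraries. It was followed in healthy libraries by Nop56 at 89.3 RPKM. The order depends on those lengths: Ncl, given 8.243 kb, was at 78.6 RPKM in healthy libraries.

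The abundant nucleolar proteins held the largest part of the reads. Ncl, which encodes nucleolin (chromosome 1, 86344719 to 86359455), gave 21.5% of the summed CPM of the 36 genes. It measured 677, 677 and 590 CPM in healthy mice and 624, 518 and 542 CPM in AML mice. AML 1 lay inside the healthy range and AML 2 and AML 3 below it, and the log2 fold change was -0.21 ± 0.10 (SE), with an adjusted p of 0.569 in the edgeR fit. Npm1, the ribosome chaperone nucleophosmin, followed the same order, at 113, 105 and 91.8 CPM in healthy mice and 105, 74.0 and 81.3 CPM in AML mice. Mybbp1a, a nucleolar protein that binds Myb, was at 160, 135 and 131 CPM in healthy mice and at 126, 106 and 128 CPM in AML mice. Its log2 fold change was -0.25 ± 0.11, and AML 3 was only just below healthy 3. Ddx21, a helicase of both transcription and processing, was at 131, 130 and 123 CPM in healthy mice and at 142, 95.8 and 100 CPM in AML mice. Here AML 1 was the highest of all 6 libraries. Nolc1, a chaperone of snoRNPs, had a log2 fold change of -0.06. Gnl3, the GTPase nucleostemin, had one of 0.14, with 48.6 to 49.0 CPM in healthy mice and 44.9 to 59.1 CPM in AML mice.

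**Figure D2:**
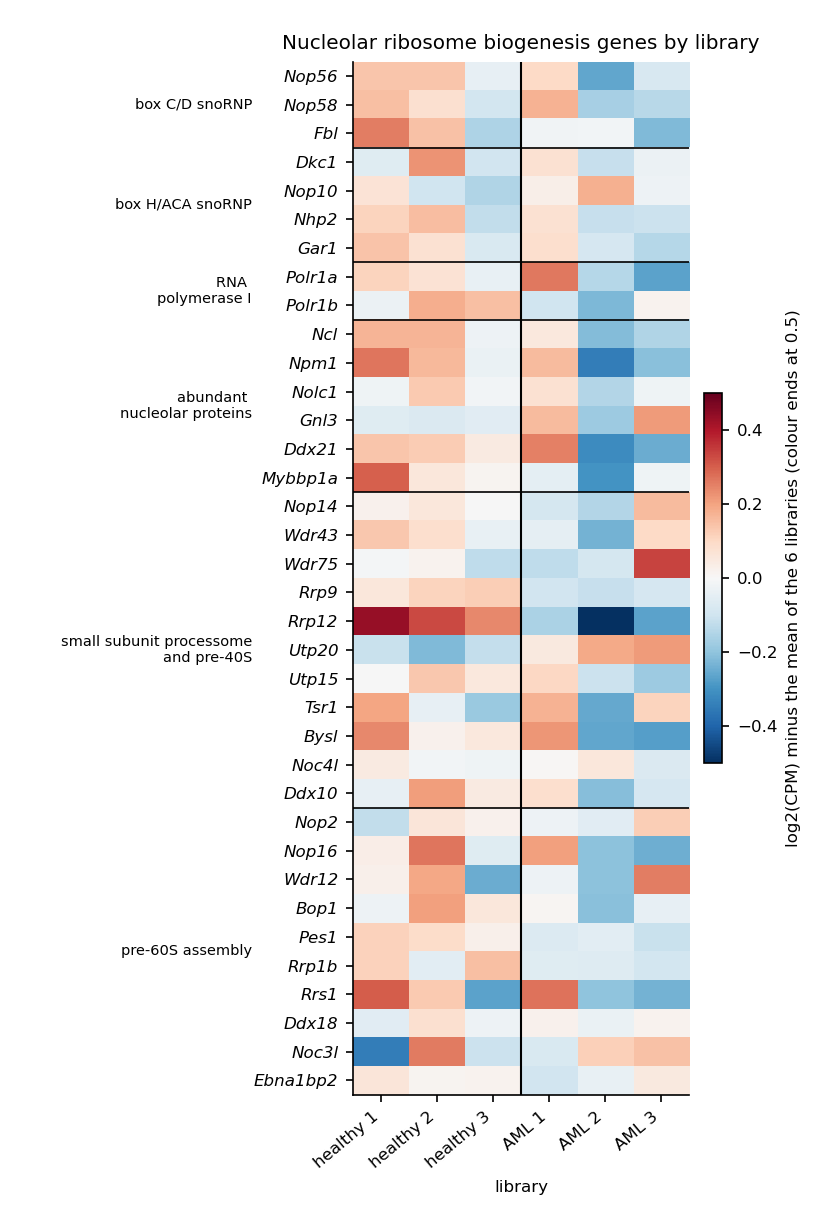
Each row is a gene and each column a library. Colour gives log2(CPM) minus the mean of that gene over the 6 libraries, and horizontal lines part the roles. The column of AML 2 is the bluest, with 17 of 36 genes at their lowest there, while AML 1 resembles the healthy columns in most rows.

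The libraries differed among themselves in a way the groups did not cover. AML 2 held the lowest value of 17 of the 36 genes, or 47.2%, against 11.8% of all genes tested. AML 3 held that of 9, or 25%, near its 21.8% of all genes. Healthy 1 and healthy 2 held the highest value of 12 and 11 members, or 33.3% and 30.6%, against 16.9% and 13.8% of all genes. In AML 1, 21 of the 36 genes lay within the range of the healthy libraries and 10 below it, while 25 lay below it in AML 2 and 19 in AML 3. For all genes tested, 26.5%, 26.2% and 31.0% lay below the healthy range in AML 1, 2 and 3. The summed CPM of the 36 genes was 3017, 3031 and 2762 in healthy 1 to 3 and 2906, 2486 and 2672 in AML 1 to 3. The groups overlapped, as AML 1 lay above healthy 3, and the means were 2937 ± 151 and 2688 ± 210 CPM (SD, n = 3 each). The mean of AML libraries differed from that of healthy libraries by -8.47%.

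The number of members past an unadjusted p depended on which libraries were kept. When AML 1 was left out, 8 members were lower at an unadjusted p under 0.05, where 8.01% of all genes were: Ncl, Npm1, Nop56, Ddx21, Bysl, Polr1a, Rrp9 and Rrp12. Without AML 1 and healthy 1 there were 7, where 7.23% of all genes were: Ncl, Npm1, Ddx21, Ddx10, Bop1, Bysl and Rrp12. Without healthy 2, or without AML 2, only Rrp12 remained on the lower side. The share of all genes was not counted for these fits. On the higher side, Gnl3 was past that p without AML 2, and Utp20 without AML 1, with or without healthy 1. Members lower by sign numbered 29 without AML 1 and 28 without AML 1 and healthy 1, beside 27 with all libraries. With AML 2 left out there were 26, and the median log2 fold change of the members was -0.06. For the higher side and for the sign, the share of all genes was counted only with all libraries, at 5.08% and 48%.

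Myc itself, which is not a member, was lower in every AML library. Myc lies on chromosome 15, 61985341 to 61990361. It measured 188, 242 and 230 CPM in healthy mice and 143, 133 and 140 CPM in AML mice. The AML libraries were close together and all below healthy 1, the lowest healthy library. The means were 220 ± 28.5 and 138 ± 5.21 CPM (SD, n = 3 each), and the log2 fold change was -0.67 ± 0.10 (SE), with an adjusted p of 0.323 in the edgeR fit. It passed without AML 1 (0.0469), without healthy 1 (0.0137), without both (0.00217), by DESeq2 (1.35e-06) and by the likelihood ratio test, and over all settings its adjusted p ranged from 1.35e-06 to 0.816. The authors' deposited table gave Myc a log2 fold change of -0.66 with an adjusted p of 0.000153.

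The order of the libraries was not the same for Myc as for the nucleolar genes. AML 1 had a Myc level like that of AML 2 and AML 3, but its summed level of the 36 genes was above that of healthy 3. Healthy 1 had the lowest Myc of its group and the second highest sum. The 95% intervals of 26 of the 36 members lay wholly above that of Myc, which ended at -0.43. That of Rrp12 did not. The same was not counted over all genes tested, so 26 of 36 is not a trait of the members. Whether Myc bears on the levels of the 36 genes was not tested. Max, the partner of Myc, measured 133 ± 10.01 and 142 ± 10.7 CPM. Of 13 genes of Myc and its partners, Myc included, 9 were lower, where 48% of all genes tested were. Their log2 fold changes ran from -1.15 to 0.96. Mnt, a repressor that also pairs with Max, had a log2 fold change of -0.29 with an adjusted p of 0.551 in the edgeR fit. Mga was on the higher side, at 0.17 (adjusted p 0.608, edgeR). AML 1 also had the most RNA of cell division genes: 20 proliferation genes summed to 1492 CPM in AML 1, 933 and 885 CPM in AML 2 and 3, and 826, 1087 and 760 CPM in healthy 1 to 3. Of these 20 genes 19 were on the higher side in AML (median log2 fold change 0.89), but this rested on AML 1, as AML 2 and AML 3 lay inside the healthy range of the sum. Without AML 1, 14 of the 20 were on the higher side, with a median of 0.06, and Mki67 was at -0.02 in place of 0.88. Without AML 1 and healthy 1, 9 of the 20 were, with a median of -0.15. The members in those same fits were lower in 29 and 28 of 36, with medians of -0.16 and -0.14. Neutrophil markers summed to 88.9 CPM in AML 1 and to at most 7.47 CPM in the other 5 libraries. Whether neutrophils in AML 1 bear on its nucleolar genes was not tested.

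**Figure D3:**
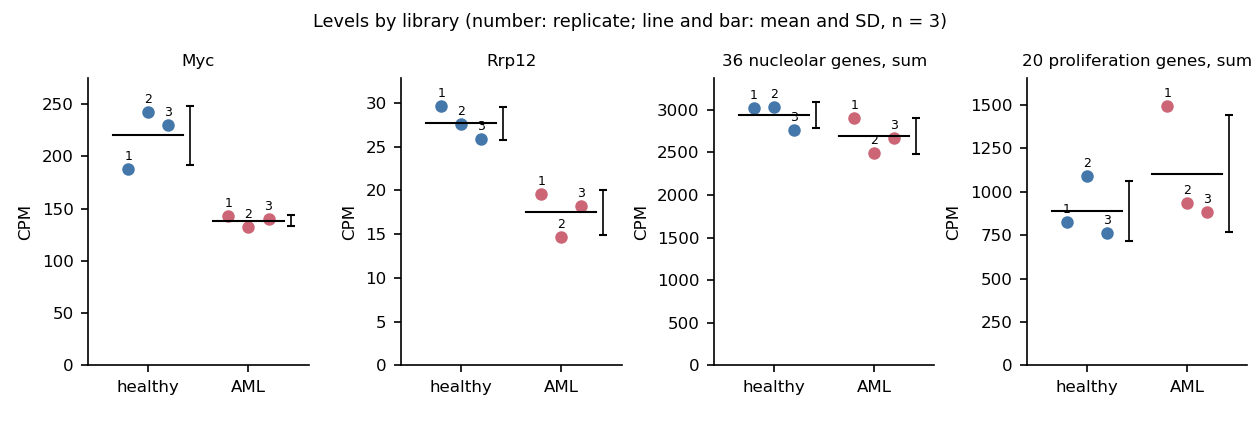
CPM of Myc, of Rrp12, of the 36 genes summed and of 20 proliferation genes summed, by group, with each library as a numbered point, the mean as a line and the SD as a bar (n = 3). Myc and Rrp12 do not overlap between the groups, the sum of the 36 genes does, and AML 1 is the highest library for the proliferation genes.

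A further 130 genes of the same pathway, outside the 36, were counted in the same fit. The log2 fold change was negative for 106 of them, or 81.5%, and the median was -0.11, close to that of the 36. At an unadjusted p under 0.05, 17 of them, or 13.1%, were lower, beside 3.75% of all genes, and 2 were higher, where 5.08% of all genes were. In the quasi-likelihood test with all libraries 0 passed the adjusted threshold. DESeq2 called 1, C1d, where 1.15% of all genes were called. Without AML 1 the quasi-likelihood test called 4, all lower (Gltscr2, Pno1, Rsl1d1 and Wdr74), where 1.15% of all genes were called. Without AML 1 and healthy 1 it called 6, where 3.54% of all genes were called. They were those 4 and Imp3 as lower and Ttf1 as higher. All 3 AML values were under the lowest healthy value for 19 of the 130, or 14.6%, and above the highest for 1. Over all genes these shares were 7.34% and 8.2%. By branch, 37 of 46 other small subunit genes and 40 of 48 other large subunit genes were lower, as were 9 of 13 of the RNA polymerase I machinery, 8 of 9 snoRNP assembly factors and 12 of 14 genes of the nuclear RNA exosome, which trims the precursors.

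The genes with the smallest p of these lists are given as examples. Wdr74, of the large subunit branch, measured 50.6 ± 0.640 and 38.2 ± 4.41 CPM in healthy and AML libraries (SD, n = 3 each), which is a difference of -0.40 ± 0.10 (SE) on the log2 scale (adjusted p 0.404, edgeR). Noc2l, the partner of Noc3l, measured 157 ± 13.8 and 123 ± 10.9 CPM, and Ddx54 154 ± 12.8 and 127 ± 4.42 CPM. In the small subunit branch Imp3, a part of the U3 particle, was at 62.0 ± 4.57 and 46.3 ± 8.64 CPM, and Nol10 was higher in AML libraries, at 19.2 ± 0.828 and 23.7 ± 0.339 CPM. C1d, a cofactor of the exosome, measured 87.0 ± 2.10 and 67.9 ± 3.86 CPM. In the RNA polymerase I machinery Taf1a, of its promoter factor, had a log2 fold change of 0.58 with overlapping groups. The groups of the other 6 genes were separate. With all libraries none of the 7 passed the quasi-likelihood test.

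Transcripts that host snoRNAs and Myc targets outside the nucleolus were counted as well. Of 10 host transcripts 3 were lower and 7 higher, with a median log2 fold change of 0.17. Their sum went the other way, at 394 to 424 CPM in healthy and 344 to 381 CPM in AML libraries. Gas5, which like many translation genes starts with a pyrimidine tract, measured 206 ± 18.8 and 167 ± 10.3 CPM (SD, n = 3 each), with non-overlapping groups and an adjusted p of 0.466 in the edgeR fit. Of 26 Myc targets outside the nucleolus 21 were lower, with a median of -0.12 and 0 called in the quasi-likelihood test with all libraries. Without AML 1 it called Slc3a2 and Odc1, and without AML 1 and healthy 1 Hspd1 as well. Of all genes 1.15% and 3.54% were called in these fits. By p the first was Slc3a2, an amino acid transporter gene, at 603, 712 and 556 CPM in healthy mice and 552, 324 and 265 CPM in AML mice, where AML 1 was almost level with healthy 3. Its log2 fold change of -0.71 ran from -1.09 without AML 1 to -0.51 without AML 3. The groups overlapped for the mitochondrial chaperone genes Hspe1 and Hspd1, whose log2 fold changes of -0.78 and -0.44 were -0.41 and -0.28 without healthy 1, the highest library for both.

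**Figure D4:**
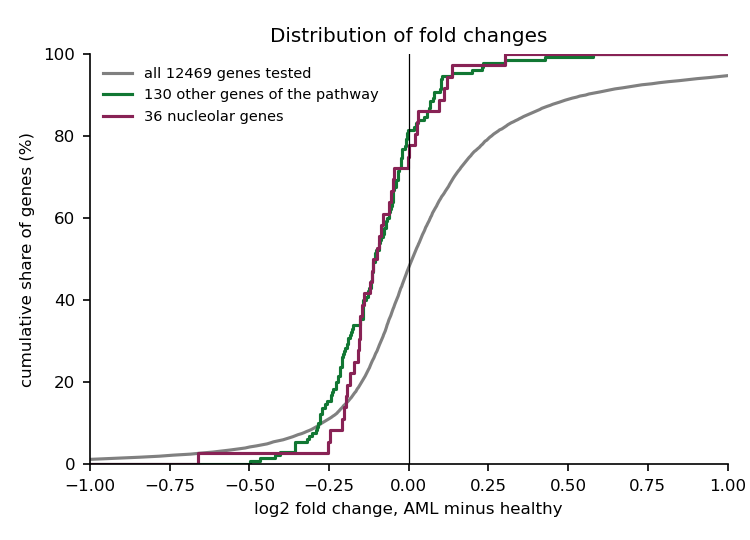
Cumulative share of genes, in percent, against the log2 fold change, AML minus healthy, for the 36 nucleolar genes, 130 other genes of the pathway and all 12469 genes tested. At 0 the curves of both pathway sets stand at 75% and above, where that of all genes is at 48%, and both sets have short tails.

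Some members share sequence with other genes, and their counts are less certain. At least 20% of the 51-base windows of the longest coding transcript, the length of a read, also occurred in transcripts of other genes for 6 members: Fbl (72.7%), Ddx18 (62.1%), Npm1 (40.6%), Nop56 (37.6%), Tsr1 (31.0%) and Pes1 (22.2%). For Tsr1 most of these windows were in Srr, whose exons lie over 32.3% of its exon bases on the opposite strand, and reads of the pair cannot be told apart without strand. The low level of Fbl, 10.3 ± 1.47 CPM in healthy mice and 9.15 ± 0.732 CPM in AML mice (SD, n = 3 each), stands beside the largest shared part, and how reads with several matches were counted is not given in the sources used here. Among the other 30 members 23 were lower, with a median log2 fold change of -0.10, as over all 36.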

How the data were processed

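RNA of liver ILC1 was amplified from 2 ng with a SMART-Seq kit and read for 51 cycles without strand information, per the labels' protocols. The authors deposited raw read counts per gene, with gene lengths. They also deposited a comparison of AML with healthy, whose columns are, per the file headers, log2 values (fold change and average level), a likelihood ratio score and p-values. The values of each library in that second table were taken as RPKM made by the authors: 0.0154% of them are whole (tolerance 1e-09), and their median ratio to RPKM computed from the counts was 1.0063 to 1.0079 per library. They entered no test. The submitters' processing notes name STAR 2.6.0, HTSeq 0.6.0, edgeR 3.28.1 and bcl2fastq 2.18.0.12 and the builds mm10 and hg19, without roles.

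AML was compared with healthy in all 12469 genes passing filterByExpr (minimum count 10) by the two-sided quasi-likelihood F test of edgeR 4.0.16 (R 4.3.3) with TMM scaling, group as the only term, and Benjamini-Hochberg adjustment over all of them (threshold 0.05). CPM values use the TMM-scaled size of each library. Standard errors and 95% intervals come from that fit. An exact permutation test of 3 against 3 libraries cannot go below p = 0.1. Alternatives used other size factors, filters and tools (DESeq2 1.42.0, limma 3.58.1), the replicate number as a block, and left-out libraries. The fit was tested on simulated data. Floors do not apply, as no member was near 0. Motifs and shared 51-base windows were counted in RefSeq and GENCODE sequences. Each pair of libraries differed by more than sampling noise.

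The 36 genes and all lists were chosen with earlier results of these data known. Named genes are all members, Myc, and at most 3 genes of each other list with the smallest p. Lyz2, Mki67, Max, Itga1, Tbx21, Pecam1, Odc1, Gltscr2, Pno1, Rsl1d1 and the markers at 0 reads were named after their values were seen.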

Additional observations from a re-analysis of the deposited data

How the results depend on the processing

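The median log2 fold change of the members stayed negative in every setting run, from -0.16 without AML 1 to -0.06 without AML 2, and 25 of the 36 members never changed sign. No member was called except Rrp12, so that members called numbered 1 by DESeq2, 1 by the likelihood ratio test and 1 without AML 1 and healthy 1. Over all genes the number called, 0 in the main test, was 143 by DESeq2, 100 by the likelihood ratio test, 2 without a filter, 1 with the stricter filter, 1 with upper-quartile factors, 444 without AML 1 and healthy 1, and 0 to 147 with single libraries left out. Members lower at an unadjusted p under 0.05, 2 in the main test, numbered 4 by DESeq2, 7 without AML 1 and healthy 1, 5 with the replicate block, and 1 to 8 with single libraries left out. The share of all genes was 3.75% in the main test, 7.23% without AML 1 and healthy 1, and 8.01% without AML 1. That share was not counted in the other fits, so their member counts cannot be set against it. The count of members past that p and that by sign were followed over the settings only after the data were seen. Myc passed by DESeq2 (log2 fold change -0.67), by the likelihood ratio test (-0.67) and without AML 1 and healthy 1 (-0.79), with -0.77 to -0.60 when single libraries were left out.

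Sign changes were confined to 11 members, most with values near 0. Ddx18 was at -0.0013 by DESeq2, -0.0012 with RLE factors, -0.0010 without a filter and -0.038 without AML 1 and healthy 1. Noc4l was at 0.015 with upper-quartile factors and 0.013 without AML 1 and healthy 1, where Nop2 was at -0.0057. With single libraries left out the ranges were -0.031 to 0.035 for Ddx18, -0.036 to 0.030 for Noc4l, -0.029 to 0.061 for Nop2, -0.12 to 0.050 for Dkc1, -0.024 to 0.28 for Noc3l, -0.14 to 0.012 for Nop14, -0.25 to 0.023 for Polr1a, -0.29 to 0.014 for Rrs1, -0.069 to 0.14 for Tsr1, -0.11 to 0.12 for Wdr12 and -0.069 to 0.18 for Wdr75. The cause of these changes was not tested. The replicate numbers are not stated to pair libraries, and deviations of equal numbers correlated across genes at 0.13, -0.05 and 0.16, so the replicate block was not used as the main fit. That block fit called 0 members, and also 0 of all genes tested.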
